A study of Ovis aries with 6 samples.

Results

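Zinc and copper transporters, metallothioneins and their partners were described in fat from around the kidney (perirenal adipose tissue) of Merino sheep before and after birth. The genes were taken from the full deposited table by name: the 10 zinc transporters named SLC30A and the 13 named SLC39A there, the metallothioneins MT2 (the table's name for MT2A), MT3 and MT4, the transcription factor MTF1, the copper genes SLC31A1, SLC31A2, ATP7A, ATP7B, ATOX1 and CCS, and CP. This gave 34 genes, of which 33 had at least 1 count in the 6 libraries, among 18260 such genes in the whole table. RNA was sequenced from 3 fetuses, wild-type and pure-bred, at 132 days of gestation (term is 150 days), and from 3 wild-type, pure-bred lambs. The labels give the lamb age as 80 days after birth, as 89 days (89 ± 7 in the protocol) and as 12 weeks, state that no animal was treated, and carry in the lamb titles the unexplained letters VEH. Each library came from 1 animal, so every mean ± SD below has n = 3 per stage.

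Zinc and copper are needed by many enzymes but are toxic when free in the cell, so cells move and bind them with dedicated proteins. SLC39A proteins (ZIP) bring zinc into the cytosol from outside or from organelles, and SLC30A proteins (ZnT) take it out of the cytosol. Metallothioneins are small, cysteine-rich proteins that bind zinc and copper, and their genes are switched on by the zinc sensor MTF1 and by glucocorticoids. Copper enters cells through SLC31A1 and is handed by small chaperones to the pumps ATP7A and ATP7B, to superoxide dismutase and to cytochrome c oxidase. Brown fat, which is rich in mitochondria, uses copper in cytochrome c oxidase, and metallothionein genes are known to be induced in brown fat by cold and by stress hormones.

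Libraries held between 15907128 and 19150428 counts. Values per gene are CPM, the read count divided by the TMM-adjusted library size, and they serve to compare 1 gene between libraries. Differences are log2, lamb minus fetal, ± SE, and adjusted p-values throughout are from edgeR's quasi-likelihood test with Benjamini-Hochberg adjustment over all 13624 genes tested. A gene was called at an adjusted p below 0.05. Of the fat cell genes fixed as markers, ADIPOQ was at 10484 ± 1245 CPM before birth and 17297 ± 3169 CPM after it, and UCP1, the uncoupling protein of brown fat, at 1631 ± 530.1 and 476 ± 77.1 CPM. Genes of the mitochondrial genome took 27.5% to 40.7% of the counts in fetal libraries and 7.37% to 8.29% in lamb libraries. Scaling by library totals alone, without TMM factors, shifted the median over all genes from -0.01 to 0.46 (log2), which raised the share of upward calls from 49.3% to 79.3%. Because the tissue was sequenced in bulk, fewer cells of a type and less RNA per cell cannot be told apart.

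Among called genes, the stages differed most in 1 metallothionein, in the zinc importers SLC39A8 and SLC39A6 and in the copper pump ATP7B. MT2, SLC39A8, SLC39A6, MTF1, SLC30A6 and SLC30A5 were higher in lambs, and ATP7B, SLC39A10 and SLC39A13 were lower. Of the 34 genes, 25 passed the filter on low counts and 9 of these were called, 6 higher and 3 lower, with a median log2 difference of 0.04. Across all genes tested 44.7% were called, 22.0% higher and 22.7% lower, with a median of -0.01, so 9 of 25 is a share below the background and is no result about the group. The stages did not overlap in 14 of the 25, against 57.7% of all genes tested. Called and past 2-fold were 4 of the 25, a share below the 22.9% of all genes tested. With scaling by library totals alone the counts were 12 higher and 1 lower.

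**Figure D1:**
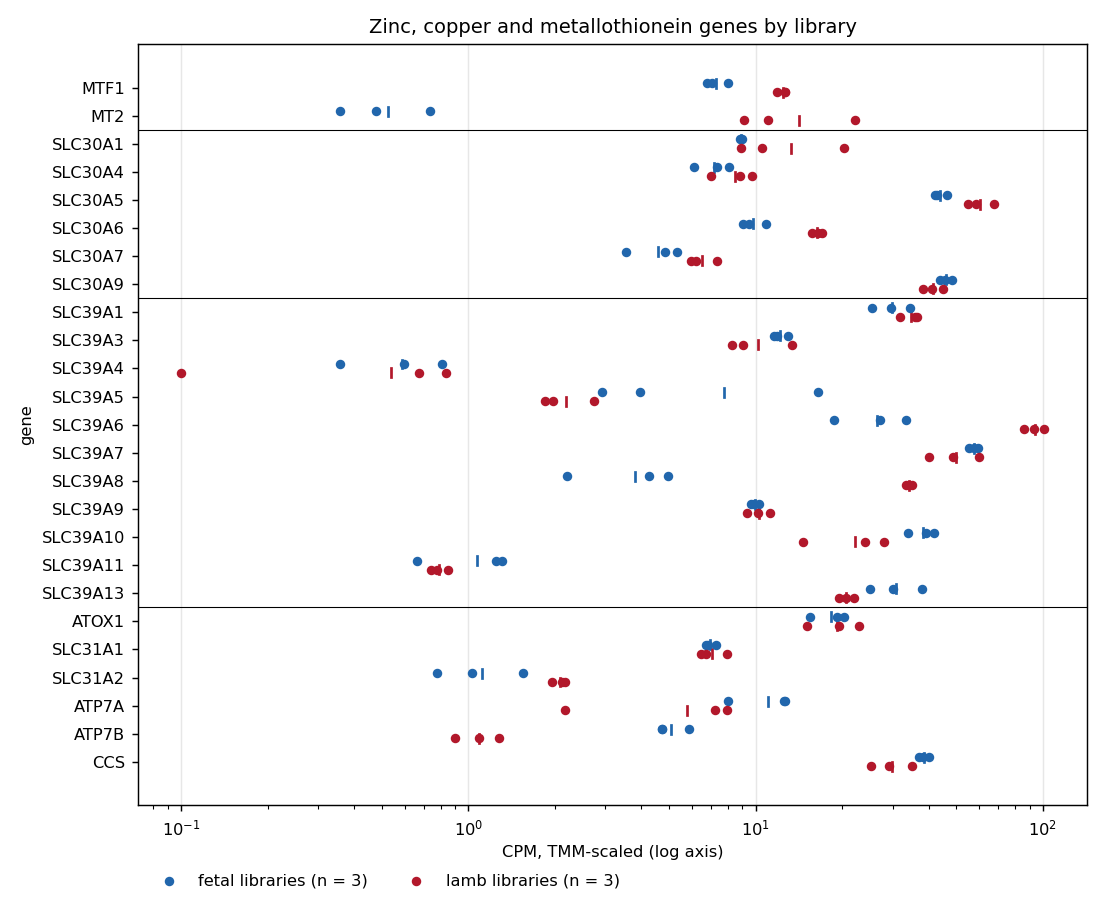
Level of each of the 25 tested genes in every library, as TMM-scaled CPM on a log axis, with the 3 fetal libraries in blue, the 3 lamb libraries in red and a bar at each stage mean. MT2, SLC39A8 and SLC39A6 stand apart between the stages, while SLC31A1, SLC39A9 and ATOX1 overlap.

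**Figure D2:**
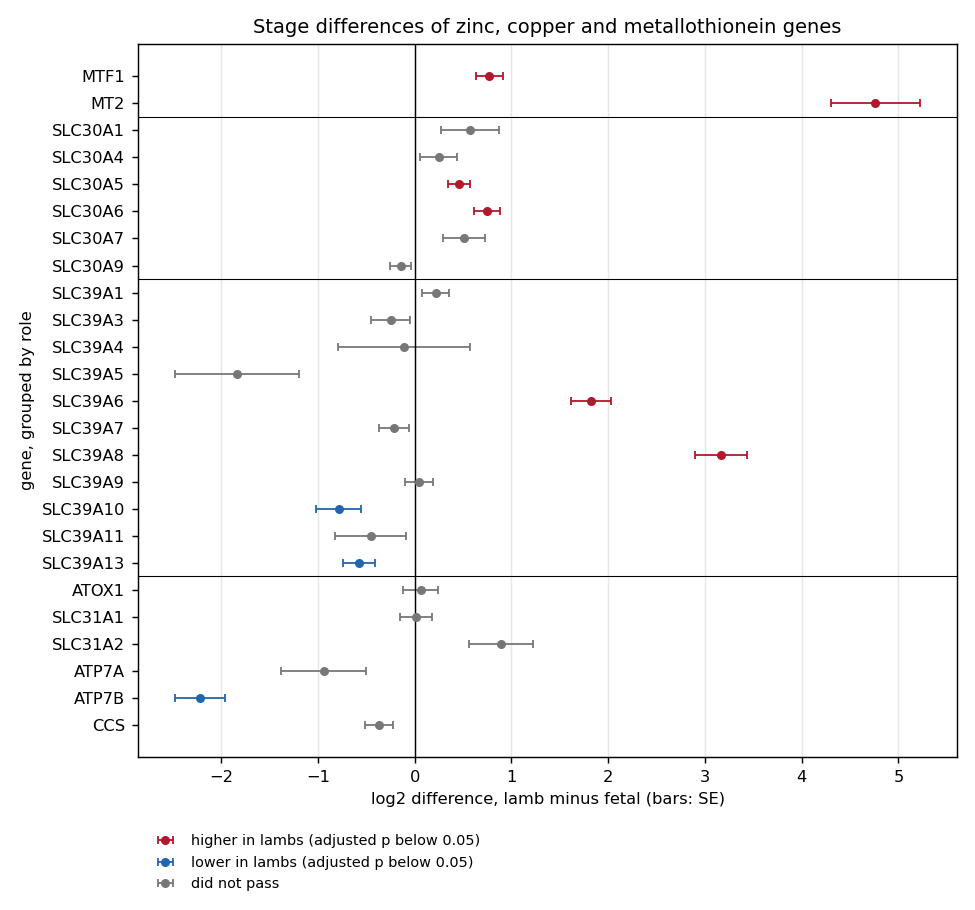
Log2 difference between the stages for the 25 tested genes, lamb minus fetal, with bars of 1 SE, grouped by role and coloured by the edgeR call. MT2 is farthest to the right at 4.76 and ATP7B farthest to the left at -2.22.

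MT2 encodes the metallothionein that most tissues make in response to zinc, copper, cadmium and glucocorticoids (ENSOARG00000018343, chromosome 14, 23525089 to 23525821 on Oar v3.1). Fetal libraries 1 to 3 held 8, 10 and 6 counts of it, and lamb libraries 1 to 3 held 224, 428 and 183. On the CPM scale these were 0.477, 0.735 and 0.358 in fetuses and 11.1, 22.2 and 9.14 in lambs. Every lamb library lay far above every fetal one, and lamb library 2 was the highest. The log2 difference was 4.76 ± 0.46 (adjusted p = 2.44e-04), a 27.1-fold higher level in lambs that rests on few fetal counts, and it lay between 4.28 and 5.06 on leaving out any 1 library.

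MTF1, the zinc-sensing transcription factor that acts on metallothionein genes (ENSOARG00000019896, chromosome 1, 12381116 to 12420275), rose as well. It was at 7.04, 6.76 and 7.99 CPM in fetal libraries 1 to 3 and 11.9, 12.7 and 12.7 CPM in lamb libraries 1 to 3. The 3 lamb values were close together and all above the fetal ones, and the difference of 0.77 ± 0.14 passed the test (adjusted p = 0.00380). It kept its call, as MT2 did, under all 16 alternatives.

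The other metallothionein genes of the rule were close to silent. MT3, known from brain, had 2, 0 and 1 counts in fetal and 1, 5 and 0 in lamb libraries. MT4, known from stratified epithelium, had 0 counts in all 6 libraries, which allows up to 0.148 to 0.221 CPM in a library (3 counts, for counting error only). Both lie on chromosome 14 beside MT2, with 8364 bp from MT2 to MT3 and 25008 bp from MT3 to MT4. MT1A, another metallothionein gene of the same cluster, was not part of the rule and was chosen after its values were seen. It starts the cluster in the table (chromosome 14, 23505870 to 23518073), 7016 bp from MT2. MT1A was at 0.298, 1.03 and 0.775 CPM in fetal libraries 1 to 3 and 4.05, 5.34 and 2.15 CPM in lamb libraries 1 to 3, a log2 difference of 2.46 ± 0.51 (adjusted p = 0.00627). As for MT2, lamb library 2 was the highest and lamb library 3 the lowest. Metallothionein genes are short and alike, so 50 bp reads may be split or lost between copies, and how reads with several placements were counted is not stated. Set against the authors' RPKM (reads scaled to gene length and library size), the MT1A counts implied a length of 0.0893 kb. That is under the 0.2 kb limit used for RPKM here, so the MT1A counts may be incomplete. The value for MT2 was 0.236 kb.

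Genes that respond to the same hormones and to handling of the tissue also moved with stage. All 6 tested glucocorticoid response genes of the list were higher in lambs, against 22.0% of all genes tested. Their summed levels were 185.8 to 228 CPM in fetuses and 803 to 979 CPM in lambs. All 5 tested immediate early genes were higher too, with sums of 73.8 to 123 CPM and 448 to 621 CPM. Lamb library 2, the highest for MT2, was also the highest of the 3 for the immediate early sum. Lamb library 3 was the highest for the glucocorticoid sum, to which FKBP5 gave 147, 209 and 363 CPM in lamb libraries 1 to 3. Of the other genes in that sum, KLF9 was highest in lamb library 3. DUSP1 and SGK1 were highest in lamb library 2, and CEBPD and TSC22D3 in lamb library 1. The part of either list in the MT2 difference was not tested.

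Among the zinc importers, 2 genes rose strongly, 2 fell moderately and 7 did not pass, of 11 tested and 13 in the table. Their median log2 difference was -0.21. SLC39A8 (ZIP8), which carries zinc and manganese across the plasma membrane and out of lysosomes (ENSOARG00000013238, chromosome 6, 22554766 to 22635293), changed most. It was at 4.95, 4.26 and 2.21 CPM in fetal libraries and at 35.1, 33.3 and 34.1 CPM in lamb libraries. The lamb values were nearly equal and the stages lay far apart. The log2 difference was 3.17 ± 0.27 (adjusted p = 1.44e-04), a 8.98-fold higher level. Macrophages are among the cells known to express SLC39A8. Of the 9 tested macrophage markers, 6 were also higher in lambs, against 22.0% of all genes tested. The 10 macrophage markers summed to 180.0 to 403 CPM in fetal and 1291 to 1602 CPM in lamb libraries, with MARCO under 1 CPM in each. Most of each lamb sum was MRC1, at 1143, 1015 and 819 CPM in lamb libraries 1 to 3. CSF1R, C1QB and C1QC did not pass. Fetal library 3 was the highest of its stage for the macrophage sum and the lowest for SLC39A8, and the part of macrophages in the difference was not tested.

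SLC39A6 (ZIP6), a plasma membrane importer that pairs with SLC39A10 (ENSOARG00000005548, chromosome 23, 21300322 to 21319024), was at 33.3, 18.7 and 27.1 CPM in fetal libraries 1 to 3 and 86.1, 101 and 93.4 CPM in lamb libraries 1 to 3. All lamb libraries exceeded all fetal ones, with fetal library 2 the lowest. The log2 difference was 1.82 ± 0.21 (adjusted p = 4.68e-04). Its partner SLC39A10 (ZIP10, chromosome 2, 196909844 to 197020639) went the other way, from 39.1, 33.9 and 41.8 CPM in fetuses to 28.0, 14.6 and 24.0 CPM in lambs. Lamb library 2 was the lowest for SLC39A10, and the stages did not overlap. Its difference of -0.78 ± 0.23 passed the test (adjusted p = 0.0264), but it no longer did without fetal library 1 (adjusted p = 0.0656), without fetal library 3 (0.0736) and with scaling by library totals, where it stood at -0.33 (0.301). Over all alternatives its adjusted p lay between 0.00993 and 0.301. The span of SLC39A10 shares 18235 bp with that of DNAH7, a dynein gene at 2.16 ± 0.563 CPM before birth and 1.80 ± 0.353 CPM after it. The differences of the partners had opposite signs under all 16 alternatives, and SLC39A6 kept its call in each.

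SLC39A13 (ZIP13), which releases zinc from the Golgi and vesicles and is known for its role in connective tissue and in holding back beige fat in mice (chromosome 15, 75471492 to 75477474), fell. It was at 24.9, 37.9 and 30.0 CPM in fetal libraries 1 to 3 and 20.6, 19.5 and 22.0 CPM in lamb libraries 1 to 3, a log2 difference of -0.58 ± 0.16 (adjusted p = 0.0234). The stages did not overlap, and fetal library 2 was the highest. The call was lost without fetal library 2, fetal library 3, lamb library 1 or lamb library 2 (adjusted p between 0.0555 and 0.0676), and with scaling by library totals the difference was -0.09 (0.691), a range of 0.0140 to 0.691 over all alternatives. PSMC3, a proteasome subunit gene, shares 1677 bp of the span of SLC39A13, and PSMC3 was lower in lambs by a similar amount (-0.72 ± 0.17, adjusted p = 0.0110). Without a stated strand setting, reads of the shared stretch cannot be told apart.

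SLC39A5 (ZIP5), an importer of the basolateral side of gut, pancreas and kidney epithelium (chromosome 3, 163024790 to 163031367), depended on 1 library. It was at 16.5, 3.97 and 2.92 CPM in fetal libraries 1 to 3 and 1.97, 2.75 and 1.85 CPM in lamb libraries 1 to 3. Fetal library 1 stood far above all others, and the remaining fetal values lay just above the lamb ones. The log2 difference of -1.83 ± 0.64 missed the threshold (adjusted p = 0.05005). Without fetal library 1 it was -0.65 (adjusted p = 0.162), and adjusted p ranged from 0.00855 to 0.162 over all alternatives, 7 of 15 passing. Fetal library 1 also had the most urothelium RNA: the 11 urothelium markers, all found, summed to 194, 77.9 and 57.0 CPM in fetal libraries 1 to 3 and to 0.699 to 1.09 CPM in lambs. All 11 of those markers were lower in lambs, against 22.7% of all genes tested. Kidney markers were low, with AQP2 and SLC34A1 at 0 counts throughout. They summed to 4.12, 2.87 and 1.19 CPM in fetal libraries 1 to 3 and to 1.66 to 2.10 CPM in lambs. Fetal library 1 was thus the highest for the kidney sum as well, so this trait was not particular to urothelium markers. The sum of the liver markers was highest in fetal library 2. The part of urothelium, kidney or other tissue in the level of SLC39A5 was not tested.

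**Figure D3:**
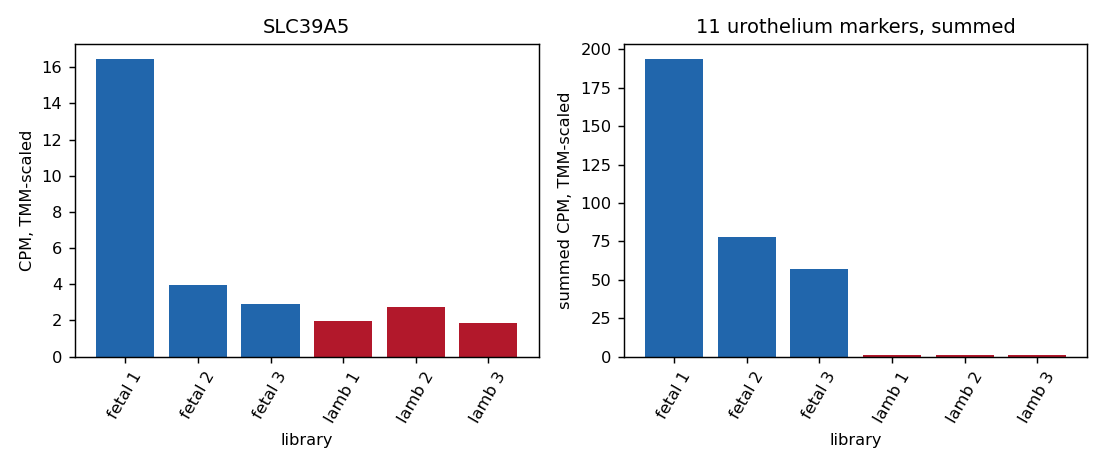
Left, SLC39A5 in each library in TMM-scaled CPM; right, the summed CPM of 11 urothelium markers in the same libraries, with fetal libraries in blue and lamb libraries in red. Fetal library 1 is highest in both, at 16.5 and 194 CPM.

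The remaining tested importers did not pass. SLC39A7 (ZIP7), which releases zinc from the endoplasmic reticulum, was at 57.5 ± 2.01 CPM before birth and 49.7 ± 10.0 CPM after it (-0.21 ± 0.15). The plasma membrane importers SLC39A1 and SLC39A3 differed by 0.22 ± 0.14 and -0.25 ± 0.20. SLC39A3 passed only without lamb library 3, at -0.48 (adjusted p = 0.0480, against 0.0480 to 0.680 over all alternatives). SLC39A9, an importer of the Golgi, was nearly level at 9.93 ± 0.345 and 10.2 ± 0.937 CPM, and SLC39A11 was low in both stages (1.08 ± 0.360 and 0.789 ± 0.0552 CPM). SLC39A4, the intestinal zinc importer, had 10, 11 and 6 counts in fetal and 17, 13 and 2 in lamb libraries, with a difference of -0.11 ± 0.69 that says little at this depth. The sign for SLC39A3, SLC39A7 and SLC39A4 turned with scaling by library totals.

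Of the 10 zinc exporters 6 were tested, of which 2 were higher in lambs, 0 lower and 4 without a call (median log2 difference 0.48). The called genes were SLC30A5 and SLC30A6, whose proteins form 1 complex that loads zinc into the early secretory pathway. SLC30A6 (ENSOARG00000010663, chromosome 3, 91611984 to 91654604) was at 9.48, 10.9 and 9.01 CPM in fetal libraries 1 to 3 and 15.7, 16.4 and 17.1 CPM in lamb libraries 1 to 3. The stages were well apart, with a difference of 0.75 ± 0.13 (adjusted p = 0.00325) that kept its call under every alternative run. SLC30A5 (ENSOARG00000005799, chromosome 16, 10511755 to 10544659) was at 46.5, 42.9 and 42.2 CPM and 55.0, 58.7 and 67.3 CPM. Its rise of 0.46 ± 0.12 (adjusted p = 0.0150) was modest, and it missed the threshold without fetal library 3 (adjusted p = 0.0586, range 0.00162 to 0.0586). SLC30A7, which works in the same compartment, was at 4.56 ± 0.921 and 6.49 ± 0.717 CPM and did not pass (0.51 ± 0.22, adjusted p = 0.0932), although the stages did not overlap.

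SLC30A1, the plasma membrane zinc exporter and a known target of MTF1 (chromosome 12, 70015802 to 70019084), did not pass. It was at 8.83, 8.90 and 8.95 CPM in fetal libraries 1 to 3 and 10.6, 8.92 and 20.3 CPM in lamb libraries 1 to 3. Lamb library 3 was high, and the other lamb values lay within or slightly above the fetal range. The difference was 0.58 ± 0.30 (adjusted p = 0.155) and fell to 0.13 without lamb library 3. With scaling by library totals SLC30A1 was at 1.04 (adjusted p = 0.0147), against a range of 0.0147 to 0.551 over all alternatives. The lamb library that was highest for SLC30A1 was the lowest for MT2 and MT1A. SLC30A4, an endosomal exporter, differed by 0.25 ± 0.19. SLC30A9, linked to zinc export from mitochondria, was at 45.9 ± 2.17 CPM before birth and 41.5 ± 3.29 CPM after it, a difference of -0.15 ± 0.11 that turned to 0.33 with scaling by library totals.

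Levels of different genes were compared only per length, with the authors' mean RPKM (reads scaled to gene length and library size). On that scale SLC30A9 was the most abundant exporter in both stages, at 39.1 in fetuses and 43.7 in lambs, followed by SLC30A5 at 14.5 and 26.9. Among importers the order changed. SLC39A9 (21.7), SLC39A13 (20.0), SLC39A7 (20.0) and SLC39A1 (19.4) led in fetuses. In lambs SLC39A6 led at 38.0, up from 8.26 in fetuses, ahead of SLC39A9 at 34.0, and SLC39A8 stood at 25.2, up from 2.90. MT2 went from 1.99, below most transporters, to 71.0, below only ATOX1 at 82.8 among the 25 genes ordered. These are means without an error, so neighbours in the order cannot be separated. RPKM is not scaled by TMM and so runs higher in lambs for a gene that did not change. For 9 of the 34 genes, SLC39A4, SLC39A5 and SLC39A11 among them, the RPKM did not match the counts within the limits given below. These genes were left out of this ordering, and the reads behind their RPKM were not examined.

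Of the 6 copper transporters and chaperones, all tested, 1 was lower, 0 were higher and 5 did not pass, with a median log2 difference of -0.18. ATP7B, the copper pump best known from liver, where its loss causes Wilson disease (ENSOARG00000009056, chromosome 10, 21656704 to 21730091), was the one that fell. It was at 5.85, 4.71 and 4.71 CPM in fetal libraries 1 to 3 and 1.28, 1.09 and 0.899 CPM in lamb libraries 1 to 3. The stages were far apart, and the difference of -2.22 ± 0.26 (adjusted p = 5.11e-04), a 4.65-fold lower level in lambs, kept its call under every alternative that tested it. Fetal library 1, the one richest in urothelium markers, was also the highest for ATP7B, and without it the difference was -2.11. Of the liver markers ALB was higher in lambs, APOA1, AHSG and SERPINA1 were lower, and FGB did not pass. The stages overlapped for AHSG, with 185, 1153 and 0 counts in fetal libraries 1 to 3 and 9, 14 and 6 in lamb libraries 1 to 3. They overlapped for SERPINA1 too, with 811, 287 and 3 counts against 18, 17 and 11. Fetal library 3 was thus below every lamb library for both genes. The 6 liver markers summed to 79.7 to 260.0 CPM in fetal and 379 to 815 CPM in lamb libraries. Most of the lamb sum was ALB, at 792, 366 and 467 CPM in lamb libraries 1 to 3. The sum therefore does not show the falls of APOA1, AHSG and SERPINA1. The part of the liver markers in the ATP7B difference was not tested.

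ATP7A, the copper pump of most other tissues (ENSOARG00000018349, chromosome X, 64434866 to 64585651), was at 12.6, 8.01 and 12.6 CPM in fetal libraries 1 to 3 and 7.95, 2.18 and 7.19 CPM in lamb libraries 1 to 3. Lamb library 2 was far below the others, and all lamb values lay below the fetal ones, 1 of them only just. The difference of -0.94 ± 0.44 did not pass (adjusted p = 0.117) and was -0.55 without lamb library 2. Per length ATP7A exceeded ATP7B in both stages, with authors' mean RPKM of 3.11 and 1.40 in fetuses and 2.98 and 0.441 in lambs.

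The copper importer SLC31A1 (CTR1, chromosome 2, 10416301 to 10420186) was level between the stages, at 7.28, 6.84 and 6.74 CPM in fetal libraries 1 to 3 and 6.47, 7.93 and 6.69 CPM in lamb libraries 1 to 3. The ranges overlapped and the difference was 0.02 ± 0.17 (adjusted p = 0.947). Its sign turned under 4 of 16 alternatives. Its relative SLC31A2 (CTR2), 93574 bp away on chromosome 2, was low, with 13, 14 and 26 counts in fetal and 44, 41 and 39 in lamb libraries. All lamb values of SLC31A2 were above the fetal ones, but the difference of 0.89 ± 0.33 did not pass (adjusted p = 0.0607). It passed without fetal library 3, at 1.21 (adjusted p = 0.0449), and with scaling by library totals (0.0180), within a range of 0.0180 to 0.183.

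Neither copper chaperone passed the test. ATOX1, which brings copper to the pumps, was at 18.4 ± 2.54 CPM before birth and 19.1 ± 3.85 CPM after it (0.06 ± 0.18). CCS, which loads copper into superoxide dismutase, was at 37.0, 40.1 and 38.3 CPM in fetal libraries 1 to 3 and 35.1, 29.1 and 25.2 CPM in lamb libraries 1 to 3. Every lamb value of CCS was below every fetal one, and the difference of -0.37 ± 0.14 did not pass (adjusted p = 0.0647), although it did without lamb library 1, at -0.50 (adjusted p = 0.0183), with upper quartile factors (0.0490) and with the stricter 5 CPM filter (0.0487). With scaling by library totals CCS was at 0.11, and its adjusted p ranged from 0.0183 to 0.639.

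CP encodes ceruloplasmin, the copper-carrying ferroxidase of plasma that liver secretes and adipose tissue can also make. It was near silent here, with 10, 6 and 2 counts in fetal libraries and 3, 2 and 6 in lamb libraries, and it did not pass the filter. With no filter beyond 1 count its adjusted p was 0.348. In all 9 genes did not pass the filter, none of them above 10 counts in a library. Among these SLC39A2, a zinc importer of skin, had 8, 7 and 8 counts in fetuses and 3, 2 and 3 in lambs, and was called lower only when the filter was dropped (adjusted p = 0.0395). SLC30A3 of synaptic vesicles had 8, 1 and 5 counts in fetuses and 4, 1 and 0 in lambs. SLC30A2, SLC30A8, SLC30A10 and SLC39A12, known from mammary gland, pancreatic islets, liver and brain, had 1 to 5 counts over all 6 libraries together.

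Further genes of copper and zinc handling were taken from lists chosen by function, with earlier results of these data known. Their shares beside those of all genes are therefore descriptive only. Of 8 tested genes that deliver copper to cytochrome c oxidase in mitochondria, 6 were lower in lambs, 1 was higher and 1 had no call, beside 22.7% lower and 22.0% higher over all genes tested. Their median log2 difference was -1.02, against -0.01 over all genes. SCO2, which passes copper to the enzyme, fell from 24.3 ± 2.03 to 5.31 ± 0.177 CPM (-2.19 ± 0.13, adjusted p = 4.93e-05). SLC25A3, the carrier that moves phosphate and copper into the matrix, fell by 1.85 ± 0.16 and COA6, a copper-site assembly factor, by 1.21 ± 0.21 on the log2 scale. COX19, an assembly factor of the same enzyme, rose by 0.75 ± 0.24 (adjusted p = 0.0344). The COX19 call was lost without fetal library 1, fetal library 3 or lamb library 3 (adjusted p of 0.0728 to 0.102; full range 0.00152 to 0.102). The 6 falls ran beside that of the mitochondrial share of counts given above, and the part of mitochondrial content was not tested.

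Of the 15 tested rows of copper enzymes, 4 rose, 3 fell and 8 did not pass, with a median of 0.20. That share of calls, 46.7%, is close to the 44.7% of all genes tested. SOD3, the superoxide dismutase outside cells, rose from 2.76 ± 1.01 to 20.2 ± 3.46 CPM (2.86 ± 0.27, adjusted p = 2.20e-04). LOXL4, a lysyl oxidase that crosslinks matrix proteins, rose by 2.39 ± 0.59 and AOC1, which oxidises histamine and other diamines, by 2.33 ± 0.43. Lamb library 3 held most of the LOXL4 counts of its stage, and LOXL4 was at 1.55 without it (adjusted p = 0.0214). COX1 and COX2, the copper-carrying subunits of cytochrome c oxidase, are encoded in the mitochondrial genome and had the largest falls of the list (-2.94 ± 0.35 and -2.69 ± 0.21). The cytosolic superoxide dismutase SOD1 stands at 2 loci in the table. The row on chromosome 11 is 1 of the 3 that fell, at -0.99 ± 0.28 (adjusted p = 0.0229), and the row on chromosome 1 did not pass, at -0.52 ± 0.39 (0.308). How reads that match both were counted is not stated, so both values are uncertain.

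Of 9 tested genes of copper reduction and of the trafficking of copper pumps, 2 rose, 4 fell and 3 did not pass (median -0.44), so 66.7% were called beside 44.7% of all genes tested. STEAP3 and STEAP4 are metalloreductases that reduce iron and copper before uptake, and they moved in opposite directions. STEAP3 fell from 16.8 ± 3.58 to 2.93 ± 0.458 CPM (-2.52 ± 0.22, adjusted p = 1.57e-04). STEAP4 rose from 1.34 ± 0.400 to 5.81 ± 4.25 CPM (2.10 ± 0.60, adjusted p = 0.0230), with lamb values of 1.88, 10.3 and 5.25 CPM. The STEAP4 call was lost without fetal library 1, fetal library 2 or lamb library 2 and with limma-voom (adjusted p of 0.0668 to 0.101; full range 0.00113 to 0.101), and the difference was 1.40 without lamb library 2. CUTA, a copper-binding protein, fell by 1.45 ± 0.28 and CCDC93, a part of the complex that recycles ATP7A, by 0.61 ± 0.15. With scaling by library totals CCDC93 was at -0.12 (adjusted p = 0.543, range 0.00422 to 0.543).

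**Figure D4:**
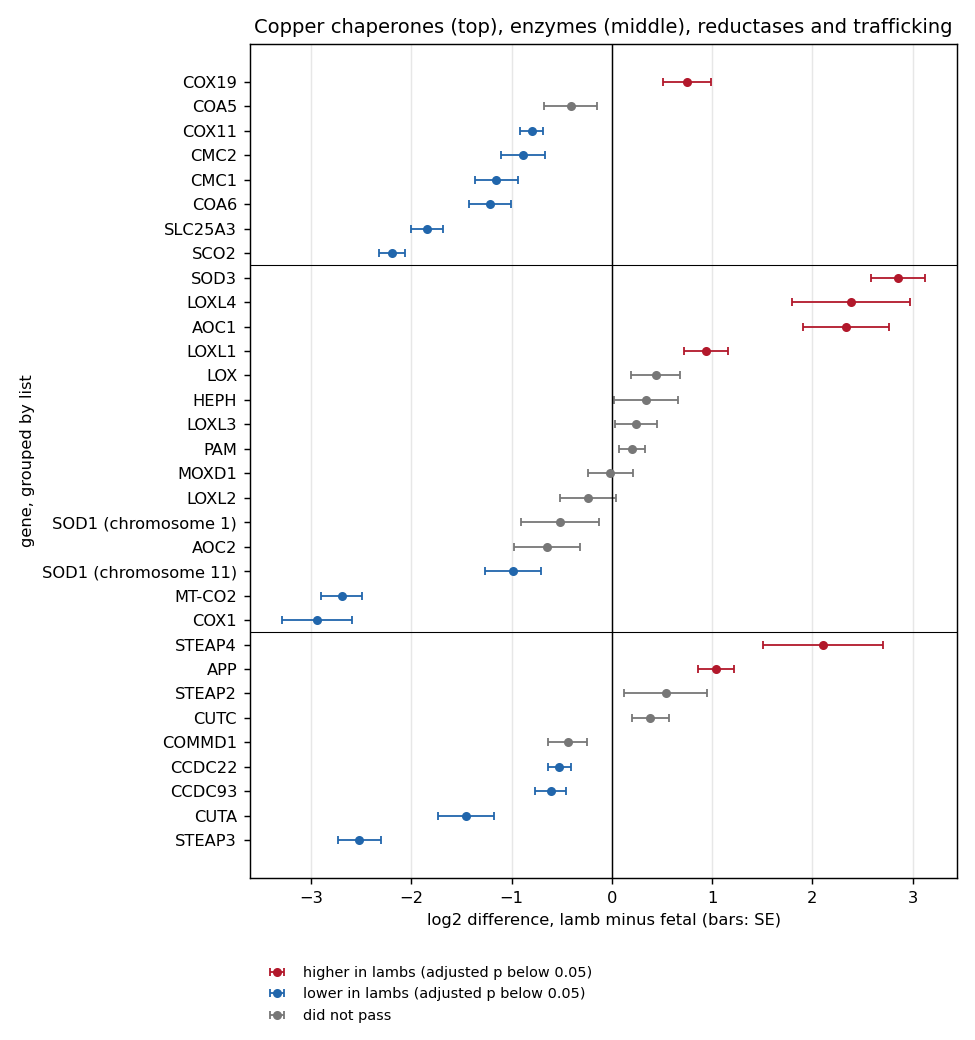
Log2 difference between the stages, lamb minus fetal, with bars of 1 SE, for the tested genes of 3 lists: mitochondrial copper chaperones at the top, copper enzymes in the middle, copper reductases and trafficking genes at the bottom. SCO2 and SLC25A3 stand lowest in the first list, and SOD3 at 2.86 highest in the second.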

How the data were processed

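The members and gene lists were chosen with earlier results of these data known. Per the labels, single-end 50 bp reads of the 6 libraries were run on 1 flowcell. The authors mapped them to Ensembl 74 gene models of Oar v3.1 in CLC Genomics Workbench 7.0; the sources used here do not give strand setting, read filters or the treatment of multiply placed reads. The deposited tables hold raw read counts per gene and library, which were tested, and the authors' mean RPKM per stage, used only for levels between genes. The 12 per-library RPKM columns were not used, since 1 header is repeated.

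Stages were compared with edgeR 4.0.16 in R 4.3.3 (filterByExpr, TMM, quasi-likelihood F test, no covariates, Benjamini-Hochberg over all genes tested). SE is the log2 difference divided by the root of F. The fit was tested on simulated counts. RPKM was set aside where its ratio between stages differed from that of the counts by over 1.5 times or implied a length under 0.2 kb. Alternatives were DESeq2 1.42.0, limma 3.58.1 voom, other scalings and filters, a replicate block and leaving out each library.

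Genes given in full were called ones past 2-fold at 1 CPM or more, and MT2, MTF1, SLC30A1, ATP7A, ATP7B, SLC31A1 and CP whatever their result; other called genes were added. SLC39A14, also on that list, is not analysed here. Each function list gave up to 3 called genes in the main direction and 1 in the other. COX2 was matched to MT-CO2 by hand. Same-numbered libraries of the stages did not deviate together.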

Additional observations from a re-analysis of the deposited data

How the results depend on the processing

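Of the 9 called genes, 6 (MT2, MTF1, SLC30A6, SLC39A6, SLC39A8 and ATP7B) kept direction and call under every alternative that tested them, and 3 (SLC30A5, SLC39A10 and SLC39A13) lost the call under some. Members called were 12 higher (also ATOX1, SLC31A2, SLC30A1, SLC30A4, SLC30A7 and SLC39A1) and 1 lower with library totals alone, 5 lower with upper quartile factors and 5 lower with no filter beyond 1 count; leaving out 1 library gave 6 higher and 2 to 4 lower. Over the 5 function lists, calls higher were 16 with library totals and 6 with at least 5 CPM in 3 libraries (fewer genes tested), against 10. Over all genes, library totals gave 5598 higher and 1459 lower. No member that was called changed sign. With library totals the signs of CCS (0.11), SLC30A9 (0.33), SLC39A3 (0.22), SLC39A4 (0.39) and SLC39A7 (0.26) turned. SLC31A1 turned with upper quartile factors (-0.041), the 5 CPM filter (-0.022), and without fetal library 3 (-0.0066), and lay between -0.076 and 0.076 on leaving out 1 library. SLC39A9 turned with upper quartile factors (-0.012) and lay between -0.021 and 0.11 on leaving out 1 library, as SLC39A4 did between -0.58 and 0.38 and ATOX1 between -0.084 and 0.21. The causes were not tested beyond the construction of each alternative. With the replicate number as a block, 6 members were higher and 4 lower, of 5353 genes called in all; ATP7A then passed at -1.08 (adjusted p = 0.0282) and COX19 did not (0.0579). The numbers have no stated meaning, and correlations of deviations for same-numbered libraries were 0.0033, -0.116 and 0.046, so the block is no evidence of a pairing. Depth limits SLC39A4, SLC31A2 and the 9 untested genes.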

Other observations

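Zinc enzymes outside the transporter families were also listed. Of 8 tested genes of secreted zinc proteases and carbonic anhydrases, 2 rose, 3 fell and 3 did not pass, with a median log2 difference of -0.16, so 62.5% were called beside 44.7% of all genes tested. CA4, a carbonic anhydrase anchored to the cell surface, was at 14.9, 30.4 and 5.07 CPM in fetal libraries 1 to 3 and 144, 125 and 192 CPM in lamb libraries 1 to 3, a rise of 3.20 ± 0.56 (edgeR adjusted p = 0.00310). Without fetal library 2, the highest of its stage, the CA4 difference was 3.95, and it lay between 2.76 and 3.95 on leaving out any 1 library. CA2, the main cytosolic form, fell from 194 ± 23.8 to 59.2 ± 18.6 CPM (-1.71 ± 0.24), and CA12, a membrane-spanning form, from 45.0 ± 17.2 to 6.76 ± 2.88 CPM (-2.73 ± 0.41). MMP2, a gelatinase of the extracellular matrix, fell by 1.19 ± 0.22. Of 4 tested genes with other links to zinc, AZGP1, a zinc-binding protein that adipocytes secrete, rose from 1.33 ± 0.324 to 3.41 ± 1.20 CPM (1.36 ± 0.36, edgeR adjusted p = 0.0185), and the other 3 did not pass. The AZGP1 call was lost without fetal library 1, lamb library 1 or lamb library 3 (adjusted p of 0.0506 to 0.0620; full range 0.00334 to 0.0620).

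Summed over the family, the 13 SLC39A genes were at 204 to 231 CPM in fetal and 265 to 296 CPM in lamb libraries. The 10 SLC30A genes summed to 115 to 124 CPM and 136 to 165 CPM. In the SLC39A sum, SLC39A6 went from a mean of 26.4 to 93.5 CPM and SLC39A8 from 3.81 to 34.2 CPM. Of the 11 SLC39A genes tested, 2 were higher, 2 lower and 7 did not pass, with a median log2 difference of -0.21. The higher SLC39A sum is therefore no rise of the family as a whole. The ratio of the SLC39A to the SLC30A sum, which cancels the scaling between libraries, was 1.67 to 1.92 in fetuses and 1.80 to 1.98 in lambs. The stages thus overlapped in it. CPM are not scaled to gene length, so the ratio serves to compare libraries and not importer with exporter levels. The span of SLC30A2 lies wholly within that of an unnamed gene, ENSOARG00000005477, which was lower in lambs (-1.03 ± 0.17, edgeR adjusted p = 0.00238), while SLC30A2 itself had 5 counts in all.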
